A study of Mus musculus with 21 samples.

Results

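Nuclear genes that encode subunits of respiratory complexes II, III and IV, of ATP synthase (complex V), and of cytochrome c were followed in podocyte-enriched RNA from young and middle-aged mice. They were selected by symbol: names that began with Uqcr or Atp5, or with Cox and a digit from 4 to 8, and *Sdha*, *Sdhb*, *Sdhc*, *Sdhd*, *Cyc1* and *Cycs*. Of 27179 genes in the count tables, 51 carried such a name, and the 48 with at least 10 reads summed over all libraries were chosen by that total. They comprised 4 genes of complex II, 9 of complex III, 16 of complex IV, 18 of complex V and the cytochrome c gene. The names nearest to the minimum were *Cox8b* with 12 reads, then *Sdhd* and then *Cox4i2* with 224 inside it, and *Uqcr11* with 8, *Cox7b2* with 2 and *Cox8c* with 0 outside it. The minimum used the total read count only, with no group value. The set of names itself was chosen with earlier results of these data known.

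All mice were wildtype C57BL/6J males, and each library came from cells of the kidney cortex that were captured with a nephrin antibody on magnetic beads. The young group held 6 libraries from untreated mice of 4 months. The saline group held 7 libraries, and the MCC950 group 8, from mice of 19.5 months that had received vehicle or MCC950, a small-molecule inhibitor of the NLRP3 inflammasome, at 10 mg/kg for 6 weeks from 18 months of age. No untreated middle-aged group and no treated young group entered the comparison, so the contrast of saline with young joined age with injection of vehicle.

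The respiratory chain passes electrons from succinate, through complex II, and from other donors to ubiquinone. Complex III then hands them to cytochrome c, a small soluble carrier, and complex IV hands them to oxygen, while ATP synthase uses the resulting proton gradient to make ATP. Complex II is encoded wholly in the nucleus. Complexes III, IV and V combine nuclear subunits with a few that the mitochondrial genome encodes, so that both genomes must supply one machine. In the kidney this machinery is abundant in tubule cells, among them those of the proximal tubule. Podocytes, the epithelial cells of the glomerular filter, hold fewer mitochondria.

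Total counts ran from 27375870 to 36827823 in the young libraries, from 45772937 to 84876399 in the saline libraries and from 35440472 to 58247271 in the MCC950 libraries. Transcripts of the mitochondrial genome took 51.5 to 80.4% of counts in young, 63.0 to 79.2% in saline and 49.9 to 63.7% in MCC950 libraries. All 14 podocyte markers were detected, none at 0, and their summed level was 954 to 1968 CPM (the read count scaled to library size, with TMM factors) in young, 458 to 719 in saline and 585 to 855 in MCC950 libraries. The 16 proximal tubule markers were also all detected and summed to more than the podocyte markers in each library, at 2578 to 9912, 2688 to 6566 and 4283 to 11976 CPM. The fractions were thus enriched for podocytes by label but also held tubular RNA, and in such bulk RNA fewer cells of a type and less RNA per cell cannot be told apart.

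Per kilobase of annotated exon, the members differed widely in mean level over all libraries. The highest was *Cox8a*, a structural subunit of complex IV, at 268 CPM per kilobase. It was followed by *Atp5a1* and *Atp5b*, the alpha and beta subunits of the catalytic head of ATP synthase, at 172 and 144, with *Cox6a1* between them at 154. This order depended on the length used. Per kilobase of the coding transcript alone, total counts over all libraries were 334308 for *Atp5b* and 319455 for *Cox8a*. They were 238262 for *Cox4i1*, 228134 for *Atp5a1* and 203035 for *Cox6a1*. Within complex III, *Uqcr10* and the Rieske iron-sulfur protein gene *Uqcrfs1* led, at 100.3 and 94.6. Complex II was led by *Sdha*, the flavoprotein that oxidises succinate, at 49.3, against 25.7 for the membrane anchor *Sdhc* and 24.5 for the iron-sulfur subunit *Sdhb*. *Cycs* stood lower, at 11.9. At the other end were *Sdhd*, the second anchor of complex II, at 0.0834, and *Cox8b*, at 0.0292, both too low for the filter that kept 46 of the 48 members for testing. The *Sdhd* value lay far below that of *Sdhc*, its partner anchor in the same complex. Whether counting or annotation lowered it was not tested, so the value need not show the level of the *Sdhd* transcript.

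Promoters are shown so that members with and without known regulator motifs can be seen side by side. RefSeq gave promoters, from 250 bases before to 50 bases after the annotated start on GRCm38.p6, for 35 of the 48 members. They were searched on both strands for the letters GCGCANGCG (NRF1), CCGGAAG (GABPA and other ETS factors), AAGATGGC (YY1) and TCAAGGTCA (ESRRA), and no pair of these motifs contains the other. The NRF1 letters lay in 12 of 35 member genes (34.3%) and in 7.03% of all 27025 genes with a promoter. The ETS letters also lay in 12 members (34.3%), against 9.93% of all genes. For YY1 the counts were 3 members (8.57%) and 3.19% of all genes, and for ESRRA 2 members, *Atp5g3* and *Sdhd* (5.71%), and 0.466% of all genes. The promoters of 4 members are printed 5′ to 3′, with every match in capitals: *Cycs* (chr6:50566520-50566819, minus strand), *Uqcrc1* (chr9:108936398-108936697, plus strand), which holds 2 NRF1 stretches, *Atp5g3* (chr2:73911277-73911576, minus strand), with 1 NRF1 and 1 ESRRA match, and *Cox7a2l* (chr17:83514284-83514583, minus strand), which held none of the 4 motifs. Between MCC950 and saline, members with at least 1 motif (20 tested) had a median log2 difference of 0.38 with 15 called higher, and members with none (13 tested) had 0.46 with 9 called higher, given as descriptions. Of all genes tested, 11.9% were called higher in that contrast.
Cycs: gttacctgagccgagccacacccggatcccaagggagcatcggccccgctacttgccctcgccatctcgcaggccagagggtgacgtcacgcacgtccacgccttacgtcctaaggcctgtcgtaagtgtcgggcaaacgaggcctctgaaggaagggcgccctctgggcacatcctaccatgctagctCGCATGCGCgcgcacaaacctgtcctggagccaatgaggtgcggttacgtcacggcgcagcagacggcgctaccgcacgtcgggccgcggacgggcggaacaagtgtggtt
Uqcrc1: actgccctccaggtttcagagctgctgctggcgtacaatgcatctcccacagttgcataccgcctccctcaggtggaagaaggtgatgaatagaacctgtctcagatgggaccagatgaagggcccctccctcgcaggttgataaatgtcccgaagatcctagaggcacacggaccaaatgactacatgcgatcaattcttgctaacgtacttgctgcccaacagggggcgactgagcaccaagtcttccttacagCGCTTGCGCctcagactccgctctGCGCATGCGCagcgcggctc
Atp5g3: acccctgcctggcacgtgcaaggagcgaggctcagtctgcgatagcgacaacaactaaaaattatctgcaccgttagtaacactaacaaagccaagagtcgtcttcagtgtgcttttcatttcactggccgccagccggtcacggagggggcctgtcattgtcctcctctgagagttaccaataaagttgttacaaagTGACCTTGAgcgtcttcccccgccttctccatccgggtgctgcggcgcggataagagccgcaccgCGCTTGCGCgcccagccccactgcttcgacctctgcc
Cox7a2l: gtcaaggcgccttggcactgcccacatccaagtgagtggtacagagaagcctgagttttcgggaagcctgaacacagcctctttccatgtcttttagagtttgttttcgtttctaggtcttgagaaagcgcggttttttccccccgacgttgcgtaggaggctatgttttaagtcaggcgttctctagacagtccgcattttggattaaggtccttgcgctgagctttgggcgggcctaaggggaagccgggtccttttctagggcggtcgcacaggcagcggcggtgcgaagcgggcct

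Between MCC950 and saline, nuclear genes of every complex were higher in the treated group, with medians per complex of 0.38 to 0.42 on the log2 scale. Summed over all 48 members, the level was 2622 to 3434 CPM (median 2966) in the 7 saline libraries and 2834 to 4637 CPM (median 3994) in the 8 MCC950 libraries. The groups overlapped, with 6 of 8 MCC950 libraries above the highest saline library. In edgeR's quasi-likelihood test with Benjamini-Hochberg adjustment over all 16377 genes tested, 33 of 46 members were higher at an adjusted p under 0.05, where 11.9% of all genes were called higher, and 0 were lower, where 4.86% of all genes were called lower. At an unadjusted p under 0.05, 40 members passed. The median log2 fold change of the 46 members was 0.39, a 1.31-fold difference, beside 0.0028 over all genes, and 44 of 46 estimates were positive. The groups did not overlap in 0 members, compared with 1.15% of all genes higher and 0.586% lower without overlap.

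Markers of the proximal tubule and of the podocyte moved with this result. Of 16 proximal tubule markers, 9 were called higher and 0 lower with MCC950 (median log2 fold change 0.92), and 6 of 8 MCC950 libraries exceeded the highest saline library in their sum. Of 14 podocyte markers, 6 were called higher and 1 lower (median 0.41). Of 7 markers of the loop of Henle and distal tubule, 0 were called higher and 2 lower (median 0.05). With the mean log2 level of the proximal tubule markers as a covariate, 0 members were called higher (median log2 fold change 0.08), and the share of all genes called higher also fell, to 2.49%. With the podocyte markers instead, 39 members were called higher (median 0.50), beside 15.7% of all genes. With the mitochondrial share as a covariate, added after the data were seen, 0 members were called although their median stayed at 0.38, and 0.769% of all genes were called higher. That share ran from 63.0 to 79.2% in saline and from 49.9 to 63.7% in MCC950 libraries. Covariate and group can thus hardly be told apart in that fit. The count of 33 was 20, 19 and 17 without saline replicate 2, 3 or 4, and 19, 21 and 20 without MCC950 replicate 1, 4 or 5. The share of all genes called higher fell too, to 8.3, 7.03 and 6.18% and to 8.19, 9.58 and 8.38%.

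**Figure D1:**
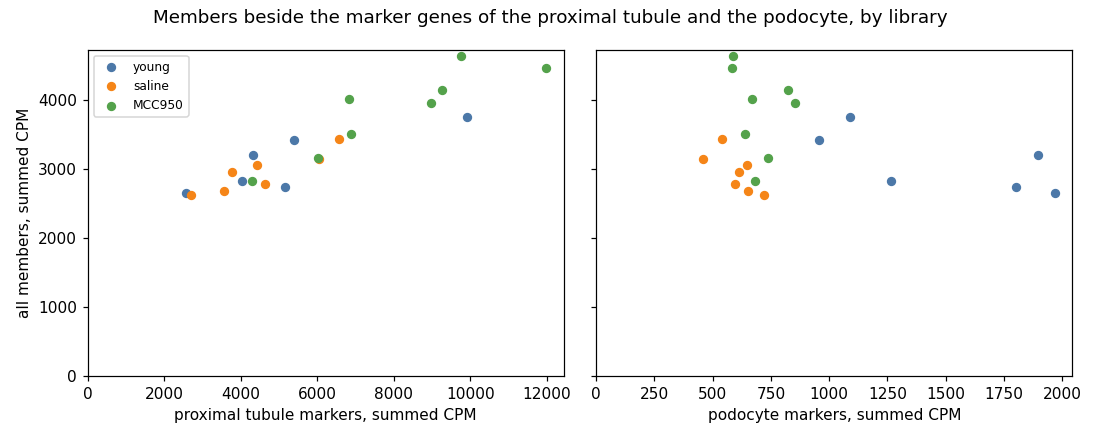
Summed CPM of all 48 members (vertical axis) against the summed CPM of 16 proximal tubule markers (left) and 14 podocyte markers (right), with 1 point per library, coloured by group. The members' sums were mostly higher in libraries with higher proximal tubule sums, and the young libraries lay apart from the others on the podocyte axis.

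In complex II, *Sdhc* ran from 61.3 to 90.6 CPM (median 73.7) in saline and from 74.9 to 131 CPM (median 99.6) in MCC950 libraries. Of the 8 treated libraries 5 lay above the highest saline library, and the difference was a log2 fold change of 0.46 ± 0.12 (SE), adjusted p = 0.015. *Sdhb* was also called higher (log2 fold change 0.39, adjusted p = 0.024), while *Sdha* did not pass, at 184 ± 17.6 CPM (SD, n = 7) in saline and 227 ± 39.7 (n = 8) in MCC950 (log2 fold change 0.30, adjusted p = 0.066). In complex III, 8 of 9 members were called, and the ninth was the pseudogene *Uqcrh-ps1* (adjusted p = 0.1). *Uqcrq*, a small structural subunit also known as the ubiquinone-binding protein, ran from 46.2 to 73.8 CPM (median 57.9) in saline and from 60.7 to 104.4 CPM (median 84.7) in MCC950, and 6 of 8 treated libraries lay above the highest saline library. The difference was a log2 fold change of 0.51 ± 0.11 (SE), adjusted p = 0.0072, the smallest p in the complex. *Uqcrfs1*, with the highest CPM of the complex, not corrected for length, was at 89.4 to 135 CPM (median 109.6) in saline and 103.7 to 187 CPM (median 158) in MCC950, with a log2 fold change of 0.45 (adjusted p = 0.017).

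Of 15 complex IV members tested, 9 were called higher. *Cox6a1*, the widely expressed form of subunit 6a, ran from 77.7 to 110.9 CPM (median 91.5) in saline and from 99.5 to 171 CPM (median 131) in MCC950. The 2 highest saline libraries lay above the lowest treated library, and the difference was a log2 fold change of 0.53 ± 0.13 (SE), adjusted p = 0.01. *Cox4i1*, the usual form of subunit 4, was at 152 ± 13.2 against 193 ± 31.9 CPM (log2 fold change 0.35, adjusted p = 0.038). The members of complex IV that did not pass were *Cox7a2l* and 5 genes with mean levels under 3 CPM in each group, *Cox4i2*, *Cox6a2*, *Cox6b2*, *Cox7a1* and *Cox7a2*. In ATP synthase 13 of 18 were called. *Atp5d*, the delta subunit of the rotating stalk, ran from 27.8 to 44.7 CPM (median 38.1) in saline and from 38.1 to 68.4 CPM (median 61.1) in MCC950. The groups overlapped between the lowest treated and the highest saline libraries, and the difference was a log2 fold change of 0.58 ± 0.14 (SE), adjusted p = 0.0095. *Atp5b*, the catalytic beta subunit, was at 527 ± 51.8 and 698 ± 111.3 CPM (log2 fold change 0.40, adjusted p = 0.018). The 5 that did not pass were *Atp5g2*, *Atp5k*, *Atp5l*, *Atp5md* and the pseudogene *Atp5c1-ps*, with log2 fold changes of 0.20 to 0.46.

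**Figure D2:**
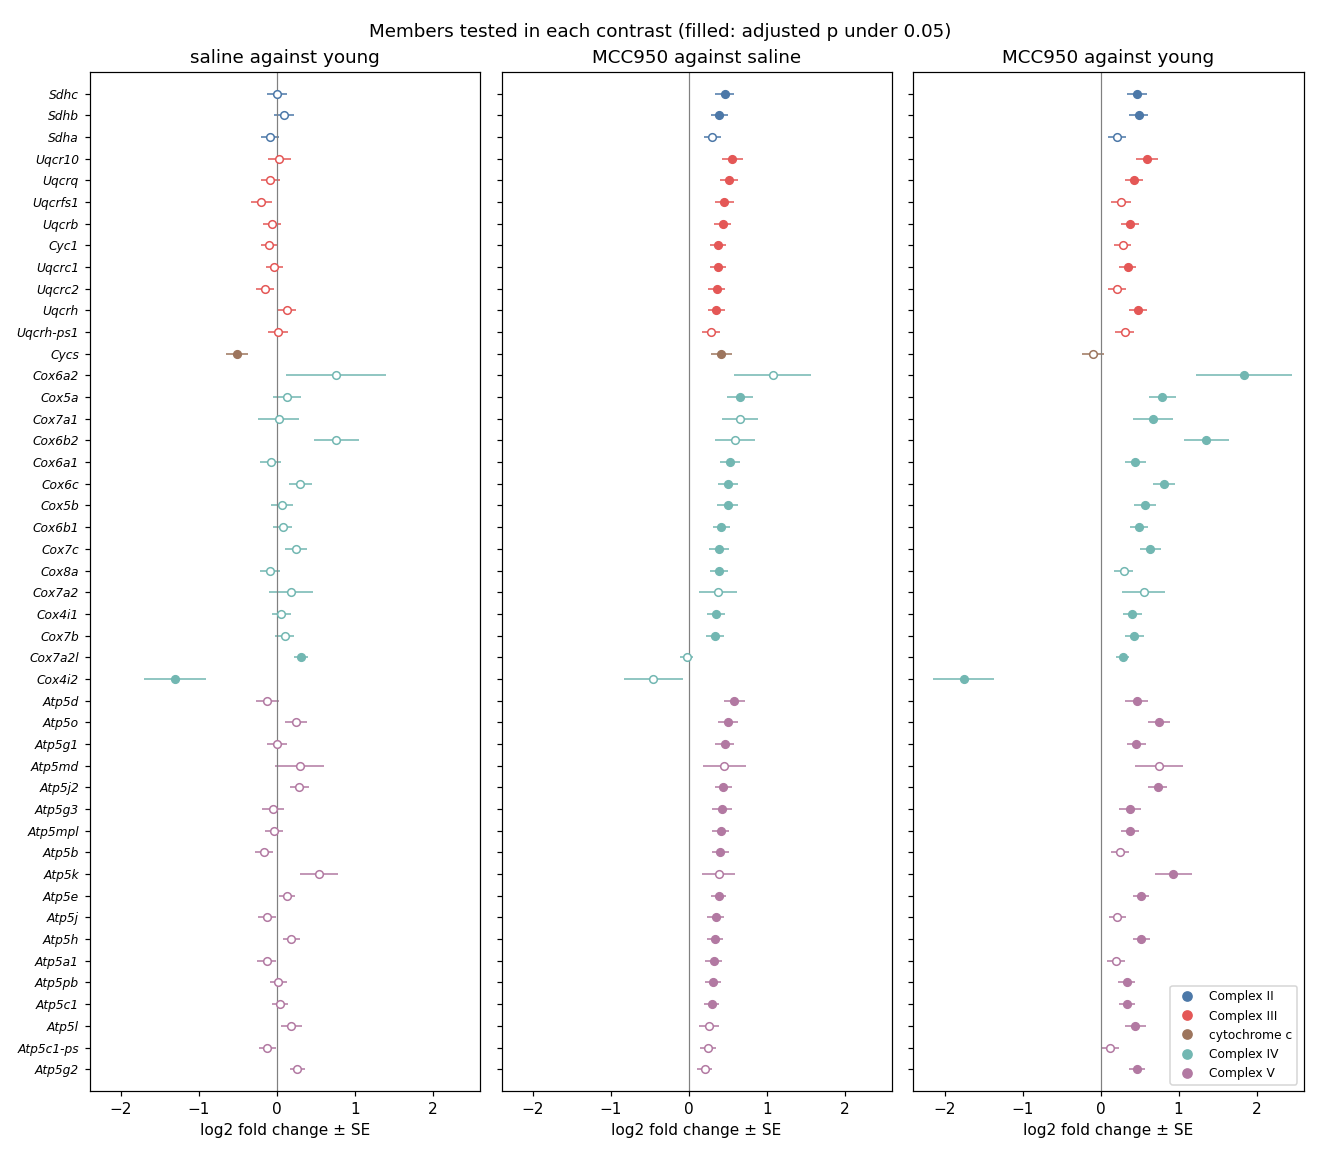
Log2 fold change with its standard error (horizontal axis) of each of the 46 members tested, in 3 contrasts, with filled points for an adjusted p under 0.05 and colours for the complexes. In the contrast of MCC950 with saline 44 of 46 points lie right of 0, *Cox7a2l* and *Cox4i2* being the other two, whereas in saline against young the points spread on both sides of 0.

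The makeup of the summed level by complex changed little beside its size. Complex V gave 52.6% of the members' counts in young, 51.4% in saline and 51.2% in MCC950 libraries, and complex IV 18.8%, 20.3% and 20.1%. Complex III gave 17.0%, 16.8% and 17.4%, and complex II 10.1%, 10.4% and 10.2%. In CPM (mean ± SD), complex II was at 316 ± 52.0 in young, 307 ± 30.6 in saline and 393 ± 68.2 in MCC950 libraries, and complex III at 527 ± 75.9, 498 ± 58.1 and 669 ± 115.1. The larger sums were 583 ± 73.5, 601 ± 56.8 and 773 ± 133 for complex IV and 1631 ± 228, 1521 ± 141 and 1966 ± 316 for complex V. These sums are descriptions without a test, and in all 4 complexes the ranges of the 3 groups overlapped.

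**Figure D3:**
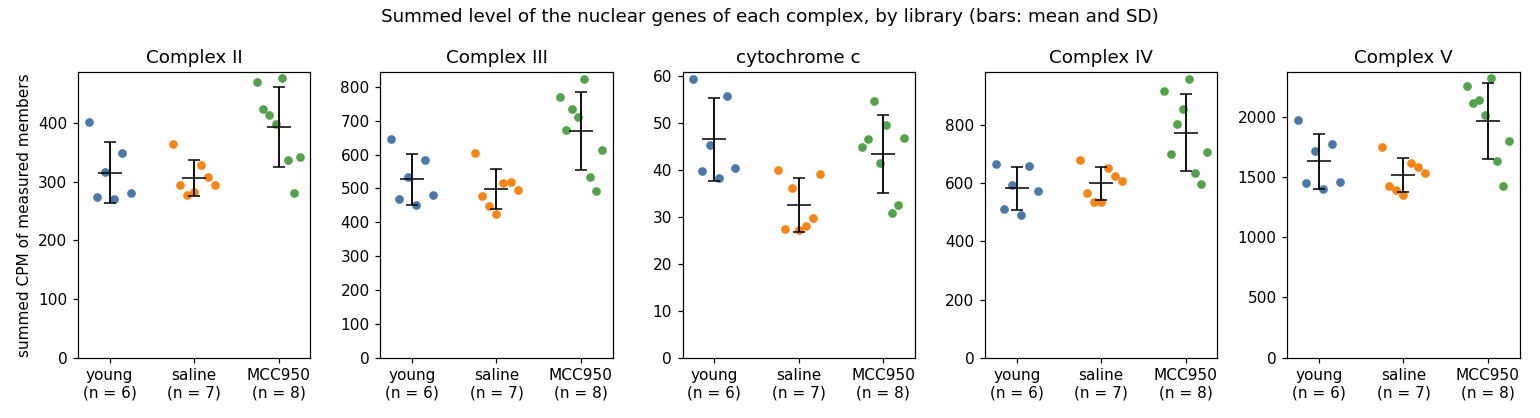
Summed CPM of the members of each complex (vertical axis, from 0) in each library, by group, with the mean and SD as bars. The MCC950 means lie above both other groups in complexes II to V, whereas cytochrome c is lowest in saline.

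Between saline and young, most members stayed near each other, and the few calls included cytochrome c. Of 46 members, 1 was called higher, against 12.2% of all genes, and 2 were called lower, against 12.4%, with 8 at an unadjusted p under 0.05. The median log2 fold change of the members was 0.03, beside 0.02 over all genes. The groups did not overlap for 1 member higher, *Cox7a2l* (4.51% of all genes), and 1 lower, *Cox4i2* (4.86%). In the same contrast 13 of 14 podocyte markers and 7 of 8 endothelial markers were called lower, while 2 of 8 macrophage and 3 of 6 B and plasma cell markers were called higher, and their part in the members' values was not tested.

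*Cycs*, which encodes the electron carrier between complexes III and IV and which also triggers caspase activation when released into the cytosol, ran from 38.3 to 59.2 CPM (median 42.8) in young and from 27.2 to 39.9 CPM (median 29.6) in saline libraries. The 2 highest saline libraries reached into the lower end of the young range. Its level fell with a log2 fold change of -0.51 ± 0.14 (SE), adjusted p = 0.012, and its share of the members' counts went from 1.49% ± 0.0908 in young to 1.10% ± 0.179 in saline. With the podocyte markers as a covariate, which did not overlap between these groups, the log2 fold change was -0.76 ± 0.29 (adjusted p = 0.27). That fit called 0 of 16377 genes lower and 0.0366% of them higher. In MCC950 libraries *Cycs* ran from 30.7 to 54.7 CPM (median 45.6). Against the saline libraries, which both contrasts share, it was higher with a log2 fold change of 0.41 ± 0.13 (SE), adjusted p = 0.037, and its share of the members stood at 1.13% ± 0.137. This second call was lost without any one of young replicate 3, saline replicates 2 to 6 or MCC950 replicates 1 to 5 or 8, where the adjusted p was 0.051 to 0.1 and the log2 fold change stayed positive. Against young, MCC950 libraries differed by -0.10 ± 0.14 (adjusted p = 0.6). The *Cycs* transcript matches another annotated gene, *Gm10053*, at 99.9% identity over 946 bases, and pseudogenes over shorter stretches. Its counts can thus hold reads of those copies, and their part in these differences was not tested.

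In the other complexes, the members of highest mean CPM, not corrected for length, did not pass between saline and young. *Sdha* was at 196 ± 30.6 CPM in young (SD, n = 6) and 184 ± 17.6 in saline (n = 7; log2 fold change -0.09, adjusted p = 0.63). *Uqcrfs1* gave -0.20 ± 0.13 (adjusted p = 0.29), the smallest p of complex III, *Cox4i1* gave 0.06 (adjusted p = 0.78) and *Atp5b* gave -0.16 (adjusted p = 0.34). The smallest p of complex II was that of *Sdhb* (0.09, adjusted p = 0.63) and of complex V that of *Atp5g2* (0.26 ± 0.10, adjusted p = 0.06), and neither passed. The count of 1 member higher was 2 without young replicate 1 or 6, saline replicate 4 or MCC950 replicate 2, and 3 without young replicate 5 or saline replicate 3, while the count of 2 lower was 1 without young replicate 5.

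*Cox7a2l* encodes a homologue of subunit 7a that has been linked to supercomplexes of complexes III and IV. Whether its product acts so in this mouse strain was not tested. The *Cox7a2l* level ran from 57.8 to 68.7 CPM (median 61.7) in young, from 70.9 to 86.5 CPM (median 77.4) in saline and from 57.9 to 89.7 CPM (median 76.3) in MCC950 libraries. Every saline library lay above every young library, and the MCC950 range covered most of both. The level was higher in saline than in young with a log2 fold change of 0.31 ± 0.09 (SE), adjusted p = 0.014, and higher in MCC950 than in young by 0.28 (adjusted p = 0.014). Between MCC950 and saline its log2 fold change was -0.03 ± 0.08 (adjusted p = 0.86), which left it apart from the 33 members that were higher there. With the podocyte markers as a covariate the call against young was lost (adjusted p = 0.81), but the podocyte sums of the young and saline libraries did not overlap, so that covariate and group cannot be told apart. The *Cox7a2l* transcript matches a pseudogene at 100% identity over 201 bases, so its counts can hold reads of that copy.

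*Cox4i2*, the isoform of subunit 4 that is known for its induction by low oxygen, was rare, at 9 to 16 reads in young, 7 to 19 in saline and 0 to 14 in MCC950 libraries. In CPM it ran from 0.348 to 0.842 CPM (median 0.443) in young, from 0.0852 to 0.271 CPM (median 0.189) in saline and from 0 to 0.256 CPM (median 0.135) in MCC950. All young libraries lay above all middle-aged libraries, whose 2 groups overlapped. It was lower in saline than in young with a log2 fold change of -1.30 ± 0.40 (SE), adjusted p = 0.02, and lower in MCC950 than in young with a log2 fold change of -1.76 ± 0.39 (SE), adjusted p = 0.0016. Between MCC950 and saline the log2 fold change was -0.45 ± 0.38 (adjusted p = 0.44). Without young replicate 5, the highest library, the first call was lost (log2 fold change -1.12, adjusted p = 0.053), as it was without the 2 libraries of highest mitochondrial share, young replicate 5 and saline replicate 7 (adjusted p = 0.062). With the podocyte covariate both calls were lost (log2 fold changes -1.13 and -1.63, adjusted p = 0.5 and 0.26), and with the mitochondrial share the call of MCC950 against young was lost (-1.42, adjusted p = 0.051). The podocyte fit called 0 of 16377 genes lower in saline against young and 140 in MCC950 against young. In saline against young, 5 of 7 mesangial and smooth muscle markers and 7 of 8 endothelial markers were also called lower. In MCC950 against young these were 6 of 7 and 8 of 8. The part of these markers in the *Cox4i2* values was not tested.

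**Figure D4:**
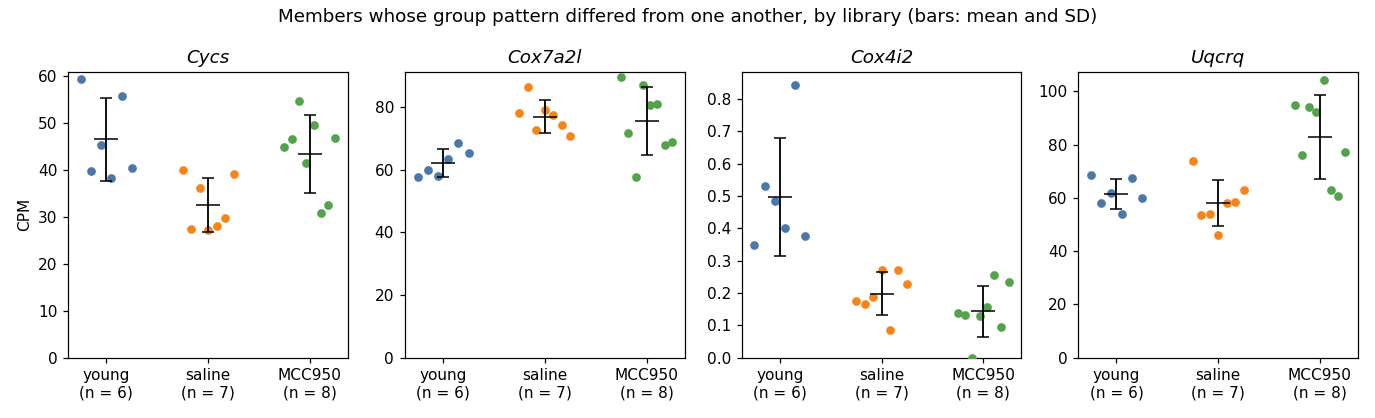
CPM (vertical axis, from 0) of *Cycs*, *Cox7a2l*, *Cox4i2* and *Uqcrq* in each library, by group, with mean and SD as bars. *Cycs* is lowest in saline, *Cox7a2l* is higher in both middle-aged groups, *Cox4i2* is lower in both, and *Uqcrq* is highest in MCC950.

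Against young libraries, MCC950 libraries had 32 of 46 members called higher (21.8% of all genes) and 1, *Cox4i2*, called lower (16.5%). The median log2 fold change was 0.44, beside 0.08 over all genes. The groups did not overlap for 2 members higher, *Atp5j2* and *Atp5o* (3.28% of all genes), and 1 lower, *Cox4i2* (4.66%). *Atp5j2*, subunit f of the membrane part of ATP synthase, ran from 8.02 to 13.6 CPM (median 11.8) in young and from 14.6 to 22.8 CPM (median 18.3) in MCC950 libraries. *Atp5o*, the subunit of the peripheral stalk that confers oligomycin sensitivity, ran from 4.77 to 7.49 CPM (median 6.21) and from 7.59 to 13.2 CPM (median 10.4). Every MCC950 library lay above every young library in both genes, with log2 fold changes of 0.73 (adjusted p = 0.00011) and 0.75 (adjusted p = 0.00034), and the saline means stood at 13.8 ± 0.891 and 7.31 ± 0.993 CPM.

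The other members with the smallest p of their complex in this contrast were *Cox6c*, at 14.1 ± 2.85 CPM (SD, n = 6) in young and 24.6 ± 4.95 (n = 8) in MCC950 (log2 fold change 0.81, adjusted p = 0.00019), the hinge protein gene *Uqcrh* (log2 fold change 0.48, adjusted p = 0.0027) and *Sdhb* (log2 fold change 0.49, adjusted p = 0.0036). Among the members of highest CPM in their complex, not corrected for length, 3 did not pass here: *Sdha* (0.21, adjusted p = 0.15), *Uqcrfs1* (0.26, adjusted p = 0.12) and *Atp5b* (0.24, adjusted p = 0.1). Of the proximal tubule markers, 9 of 16 were called higher and 0 lower in this contrast, and 12 of 14 podocyte markers were called lower. The count of 32 was 14 with the proximal tubule markers as a covariate, 16 with the mitochondrial share and 0 with the podocyte markers, which did not overlap between these groups. Of all genes, 21.3%, 12.7% and 0.391% were called higher in those fits.

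Several subunits exist as alternative isoforms. Subunit 4 came almost wholly from *Cox4i1*, and *Cox4i2* gave 0.342% ± 0.0980 of the pair's counts in young, 0.133% ± 0.0485 in saline and 0.0765% ± 0.0478 in MCC950 libraries. *Cox6b2*, known as the testis form of subunit 6b, gave 2.75% ± 0.949, 4.23% ± 1.44 and 4.73% ± 1.23 of its pair. Its level of 1.10 ± 0.383 CPM in young and 2.77 ± 0.998 in MCC950 libraries differed by 1.35 on the log2 scale (adjusted p = 0.0011), while *Cox6b1* differed by 0.49 (adjusted p = 0.003). The heart and muscle forms *Cox6a2* and *Cox7a1* also passed in that contrast, at 1.84 (adjusted p = 0.022) and 0.67 (adjusted p = 0.042), from means under 1 CPM in each group. *Cox7a1* and *Cox7a2* held similar shares, *Cox7a1* giving 52.9% ± 10.2, 49.4% ± 9.98 and 53.8% ± 9.50 of the pair. Both rested on few reads, 636 for *Cox7a1* and 587 for *Cox7a2* over all libraries. The alignment did not split reads across introns, and its part in these low counts was not tested. The shares thus need not show the isoform makeup of subunit 7a. *Cox8b*, the muscle form of subunit 8, was at 0 reads in 5 libraries of each group, against 155 ± 18.2, 146 ± 17.7 and 190.5 ± 37.2 CPM for *Cox8a*.

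Subunit c, which forms the rotating ring of ATP synthase, is made from 3 genes whose mature protein is the same. *Atp5g3* gave 76.9% ± 2.05, 75.6% ± 0.772 and 75.9% ± 1.51 of their counts in young, saline and MCC950 libraries, *Atp5g1* 17.6% ± 1.66, 17.8% ± 1.03 and 18.3% ± 1.34, and *Atp5g2* 5.49% ± 0.692, 6.67% ± 0.762 and 5.81% ± 0.770. Between MCC950 and saline, *Atp5g1* (log2 fold change 0.46, adjusted p = 0.015) and *Atp5g3* (0.43, adjusted p = 0.03) were called higher, and *Atp5g2* was not (0.20, adjusted p = 0.13). Between saline and young the 3 genes gave -0.00088, -0.05 and 0.26, none past the threshold. The *Atp5g2* transcript lies wholly within sequence that pseudogene copies share at 100% identity, so its counts can hold reads of those copies.

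Transcripts of the mitochondrial genome were not higher where the nuclear ones were. Complex III has 1 mitochondrial subunit (*CYTB*), complex IV has 3 and complex V has 2. Of these 6, *ATP6*, *ATP8* and *COX3* were called lower in MCC950 than in saline, with log2 fold changes of -0.78 ± 0.24 (adjusted p = 0.03), -1.56 ± 0.27 (adjusted p = 0.0018) and -0.74 ± 0.25 (adjusted p = 0.045). *COX1*, *COX2* and *CYTB* gave -0.80, -0.60 and -0.71 without passing. The summed nuclear transcripts of complex III stood at 0.518% ± 0.345 (SD) of the mitochondrial transcript of the same complex in young, 0.403% ± 0.0954 in saline and 0.860% ± 0.213 in MCC950 libraries. For complex IV the figures were 0.193% ± 0.123, 0.168% ± 0.0440 and 0.350% ± 0.0834, and for complex V 4.34% ± 2.76, 3.60% ± 0.937 and 7.74% ± 1.36. In each of the 3 complexes every MCC950 library lay above every saline library, while young replicate 1, the young library with the smallest mitochondrial share, lay within the MCC950 range.

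**Figure D5:**
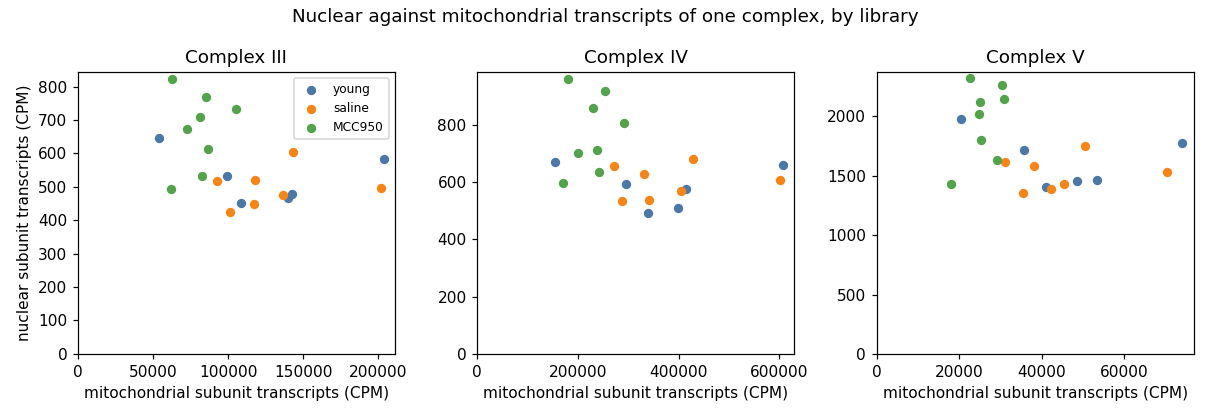
Summed CPM of the nuclear members (vertical axis) against summed CPM of the mitochondrial subunit transcripts (horizontal axis) of complexes III, IV and V, with 1 point per library, coloured by group. MCC950 libraries lie mostly towards the upper left, with more nuclear and fewer mitochondrial transcripts. They overlap the saline libraries on the vertical axis in each plot, and on the horizontal axis in complexes III and IV. Saline and young libraries share one range, except 1 young library at the left of each plot.

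A separate list of 38 genes, mostly factors that assemble these complexes, was also examined, and 36 of them were tested. The list also held *Ndufa4*, a subunit of complex IV, and *Atpif1*, an inhibitor of ATP synthase. Between MCC950 and saline 17 were called higher and 0 lower (median log2 fold change 0.29), beside the 11.9% and 4.86% of all genes. They included *Bcs1l*, which inserts the Rieske protein into complex III (0.49 ± 0.10, adjusted p = 0.0048), and *Coa3* and *Cox19*, which act in complex IV assembly (0.44 ± 0.10, adjusted p = 0.0061, and 0.46 ± 0.10, adjusted p = 0.0065). By complex, 1 of 4 listed genes of complex II, 2 of 6 of complex III, 12 of 22 of complex IV and 2 of 4 of complex V were called. Between saline and young 1 was higher, *Pet100* (0.45, adjusted p = 0.016), and 3 were lower: *Sdhaf2*, which helps to attach the flavin of complex II (-0.22, adjusted p = 0.019), *Higd1a* (-0.40, adjusted p = 0.042) and the haem farnesyltransferase gene *Cox10* (-0.27, adjusted p = 0.046). In that contrast 12.2% of all genes were called higher and 12.4% lower. Between MCC950 and young 15 were called higher and 0 lower, beside 21.8% and 16.5% of all genes.

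Few transcriptional regulators known to act on respiratory chain genes were called between MCC950 and saline. Of 15 tested, 1 was higher, beside 11.9% of all genes, and 1 lower, beside 4.86%. *Esrra*, an orphan nuclear receptor that drives oxidative genes, ran from 35.7 to 53.0 CPM (median 41.4) in saline and from 45.5 to 66.8 CPM (median 54.5) in MCC950 libraries, with overlapping ranges and a log2 fold change of 0.42 ± 0.10 (SE), adjusted p = 0.012. The call was lost with the proximal tubule covariate (0.16, adjusted p = 0.35) and with the mitochondrial share (0.45, adjusted p = 0.11). *Gabpb2* was lower (-0.29, adjusted p = 0.021). *Ppargc1a*, the coactivator PGC-1alpha, was at 36.6 ± 6.18 CPM in saline and 31.8 ± 8.80 in MCC950 (log2 fold change -0.20, adjusted p = 0.38). *Nrf1* (0.05, adjusted p = 0.77), *Gabpa* (-0.04, adjusted p = 0.69) and the mitochondrial transcription factor *Tfam* (0.05, adjusted p = 0.69) did not pass.

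Between saline and young, *Yy1* was lower, at 22.3 ± 1.89 against 17.4 ± 1.05 CPM (log2 fold change -0.36 ± 0.07, adjusted p = 0.00088), as was *Gabpa*, at 20.7 ± 1.60 against 17.0 ± 1.29 CPM (-0.29 ± 0.07, adjusted p = 0.0059), while its partner *Gabpb1* was higher (0.25, adjusted p = 0.031). *Ppargc1a* (-0.13), *Esrra* (-0.06), *Nrf1* (0.07) and *Tfam* (0.15) did not pass in that contrast.

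Some members carry counts that may be shared with copies elsewhere in the genome. In a search of the annotated transcripts, 15 of 46 members matched at least 1 pseudogene at 95% identity or more over at least 100 bases. Beside the parents, 2 pseudogenes are themselves members by name: *Uqcrh-ps1* held 28.3%, 26.8% and 26.1% of the counts of the pair with *Uqcrh* in young, saline and MCC950 libraries, and *Atp5c1-ps* held 56.3%, 53.7% and 52.7% of the pair with *Atp5c1*. Their division between parent and copy is uncertain. With both pairs summed, 32 members were called higher between MCC950 and saline. *Sdhd* had 0 to 12 reads per library and no copy in that search. *Atp5k* and *Atp5md*, subunits e and DAPIT of ATP synthase, stayed under 2 CPM in every library and matched 1 and 3 pseudogenes. How the authors counted reads that match several places is not given in the sources used here, so the levels of the members with copies are uncertain.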

How the data were processed

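RNA of nephrin-sorted podocyte fractions was sequenced in 21 libraries. The authors trimmed reads with Trim Galore, aligned them with Bowtie2 to GRCm38 (mm10) and counted them per gene with featureCounts, and the deposited whole-number counts were used as they stand. Bowtie2 does not split reads across introns, and neither strand setting nor treatment of reads with several matches is given in the sources used here. Gene IDs were named from RefSeq (25275), GENCODE (18) or not at all (1886). Total counts were 27375870 to 84876399 per library. The 5804891 to 28569185 counts outside the mitochondrial genome bound the precision of the members. Standard errors of fold changes come from the quasi-likelihood test and include the spread between libraries. Each library came from an individual mouse, per the study's text.

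Counts were scaled by TMM, filtered by filterByExpr and tested with the quasi-likelihood F test of edgeR 4.0.16 in R 4.3.3, with 1 mean per group and all 21 libraries in the fit. Benjamini-Hochberg adjustment ran over 16377 genes. Levels are counts scaled to library size by TMM (CPM), and levels per kilobase use the union of annotated exons. Copies were searched with BLAST 2.17.0 at 95% identity over 100 bases. The script was tested on simulated data. No 2 libraries agreed within sampling noise (lowest chi-square per degree of freedom 16.7).

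Named genes were, per complex, the member of highest mean CPM and the member of smallest p in each contrast, the isoform pairs, calls against the members' median, members failing the filter, and from the assembly and regulator lists up to 3 calls of smallest p per direction, with *Ppargc1a*, *Esrra*, *Nrf1*, *Gabpa* and *Tfam*. Other members and the mitochondrial genes were named after their values were seen. The members, gene lists and markers were chosen with earlier results of these data known. Alternatives were DESeq2 1.42.0, its size factors, other filters, mitochondrial genes left out, 2 groups alone, a replicate block, marker or mitochondrial covariates, thinning to 5804891 non-mitochondrial counts, summed pseudogene pairs and each library left out.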

Additional observations from a re-analysis of the deposited data

Results flagged for a closer look

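Of 87 groups of member and complex values checked, 3 held a library far from the others of its group, and chance flags about 1 group in 20. *Cox4i2* stood at 0.842 CPM in young replicate 5, where the median of the 6 young libraries was 0.443 CPM. That library also had the highest mitochondrial share, 80.4%. *Cox8b* stood at 0.0364 CPM in young replicate 4 and at 0.0758 CPM in saline replicate 7, in both groups against a median of 0 CPM, and the gene had 12 reads in all libraries together.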

How the results depend on the processing

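Most of these limits concern depth and RNA makeup. Genes under about 1 CPM, among them *Cox4i2*, rest on few reads, and the podocyte marker sums do not overlap between young and middle-aged libraries. The direction of the members' median held in every alternative between MCC950 and saline and between MCC950 and young. Where values changed, the cause was not tested.

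Between MCC950 and saline, the 33 members higher became 0 with the proximal tubule covariate (median 0.085) and 0 with the mitochondrial covariate, and 39 with the podocyte covariate (median 0.50). With DESeq2 35 were called, and leaving out single libraries gave 17 to 37, with 0 lower throughout and medians of 0.34 to 0.45. Between MCC950 and young, the 32 higher became 14 with the proximal tubule covariate (median 0.21), 0 with the podocyte covariate (median 0.14) and 16 with the mitochondrial covariate, and ran from 27 to 38 without single libraries (medians 0.35 to 0.50). The 1 lower there became 0 with at least 10 counts in every library, the podocyte covariate, thinning or the mitochondrial covariate, and stayed 1 without single libraries. Between saline and young, the 1 higher became 2 with DESeq2, with at least 10 counts in every library, with the replicate block or without the 2 libraries of highest mitochondrial share, 7 with the proximal tubule covariate and 0 with the podocyte covariate, and ran from 1 to 3 without single libraries. Of all genes, 16.6% were called higher with the proximal tubule covariate and 0.0366% with the podocyte covariate. The podocyte fit called 0 of 16377 genes lower. The 2 lower became 1 with at least 10 counts in every library, thinning or without the 2 libraries of highest mitochondrial share and 0 with the podocyte covariate (median -0.38), and ran from 1 to 2 without single libraries (medians -0.02 to 0.09).

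The labels share replicate numbers between groups, but same-numbered libraries did not deviate together in every pair (correlations -0.14 to 0.33 between MCC950 and saline), so the numbers were not taken to pair mice. With the replicate block, 34 members were higher between MCC950 and saline and 40 between MCC950 and young. Of all genes, 14.5% and 23.6% were called higher there.

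Signs turned as follows, in log2 fold change. With the proximal tubule covariate, *Sdha* gave -0.029 (MCC950 against saline) and -0.047 (against young), *Uqcrfs1* -0.046 and *Atp5b* -0.012 (MCC950 against young), *Cox7a2* -0.10, *Atp5g2* -0.010 and *Tfam* -0.12 (MCC950 against saline), and *Atp5g1* 0.046 and *Atp5g3* 0.025 (saline against young). With the podocyte covariate, saline against young gave *Sdhb* -0.37, *Cox4i1* -0.51, *Atp5g2* -0.12, *Cox6b1* -0.44, *Cox6b2* -0.52, *Cox7a1* -0.50, *Cox7a2* -0.22, *Nrf1* -0.15 and *Tfam* -0.28, and MCC950 against young gave *Uqcrfs1* -0.0081 and *Atp5g3* -0.032. For *Atp5g1* between saline and young, no filter gave 0.011, 10 counts in every library 0.0098, the replicate block 0.040, thinning 0.0019 and the mitochondrial covariate 0.0036, and for *Atp5g3* the replicate block gave 0.0054. Thinning gave *Nrf1* -0.014 (saline against young), *Gabpa* 0.0075 and *Tfam* -0.010 (MCC950 against saline). Without single libraries, saline against young ran from -0.0024 to 0.13 for *Cox4i1*, -0.13 to 0.23 for *Cox7a1*, -0.017 to 0.34 for *Cox7a2*, -0.072 to 0.054 for *Atp5g1* and -0.12 to 0.022 for *Atp5g3*, and MCC950 against saline from -0.010 to 0.079 for *Nrf1* and -0.014 to 0.074 for *Tfam*.

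Of the single-gene results, 836 of the values under settings that kept all libraries or left out 2 kept their direction and side of the threshold, 96 lost it, 20 gained it and 29 turned sign. The *Cycs* call between MCC950 and saline had an adjusted p of 0.64 with the proximal tubule covariate and 0.18 with the mitochondrial covariate, in edgeR's quasi-likelihood test with Benjamini-Hochberg adjustment.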
